A study of Mus musculus with 12 samples.

Results

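The 10 genes described here mark the enteroendocrine cells of the gut epithelium: the granule proteins Chga and Chgb, the hormone genes Cck, Gip, Sct, Sst, Ghrl, Gcg and Pyy, and the transcription factor gene Neurod1. They were taken by gene symbol from a table of 17112 genes, and all 10 were found. All 10 also passed the filter on low values (a level of 1 CPM or more in 2 or more libraries, where CPM is the read count scaled to library size), which 14001 genes passed. The study measured RNA by sequencing in the small intestine of 12 C57BL/6 mice, with 1 library per mouse. It compared zinc bound to the amino end with zinc bound to the hydroxy end of an organic complex in the diet, and asked whether the effect depends on Zip4, the gene (Slc39a4) of the zinc importer in the apical membrane of the enterocyte.

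The 6 groups held 2 libraries each. Wild type (WT) and Zip4 heterozygous (HET) mice received 15 ppm zinc as either complex, and Zip4 knockout (KO) mice received 40 ppm as either complex, per the sample labels. The text on the series as a whole gives 15 ppm for all mice. If the sample labels are right, any comparison with KO mixes genotype with zinc level, which then cannot be told apart. The WT mice were 210 and 218 days old on the amino complex and 237 and 221 days on the hydroxy complex. The HET mice were 363 and 141 days old on the amino complex and 338 and 143 days on the hydroxy complex. The KO mice were 198 and 228 days old on the amino complex and 237 and 240 days on the hydroxy complex. The labels say neither how the deletion was made nor which exons it removes, and they give no litter, cage or batch. A library is named below by its group and replicate number, which is a name only.

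Enteroendocrine cells are scattered single cells of the epithelium that sense the contents of the lumen and release peptide hormones from dense-core granules at their base. Chromogranins help to form these granules, and NEUROD1 acts in the differentiation of the cells. Which hormones a cell makes varies along the gut: gastric inhibitory polypeptide, secretin and cholecystokinin are known mainly from the proximal small intestine, and peptide YY and the glucagon-like peptides mainly from the ileum and colon.

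Libraries held 26.0 to 38.8 M reads, at which 3 reads correspond to 0.0773 to 0.115 CPM. Slc39a4 stood at 42.0 to 91.6 CPM in the 4 KO libraries, 117 to 267 in HET and 188 to 256 in WT, with no overlap between KO and either other genotype. The labelled tissue did not have the same marker levels throughout. Fabp6, which binds bile acids in ileal enterocytes, reached 259 CPM in the library WT hydroxy 1 and 99.3 CPM in the library HET amino 2, and was under 1 in each of the other 10. Slc10a2, the ileal bile acid transporter, stood at 8.32 and 9.48 CPM in those libraries and below 1 elsewhere. KO amino 1, labelled male, had 244 CPM of Xist, and 4 genes of the Y chromosome (Ddx3y, Eif2s3y, Kdm5d and Uty) were listed at 0 in it. KO amino 2, labelled female, had 0.155 CPM of Xist and 32.2 CPM of Ddx3y. The other 10 libraries had at most 0.877 CPM of Xist and at least 24.99 CPM of Ddx3y, so KO amino 1 alone had the pattern it showed. Many results that involve WT hydroxy 1, HET amino 2 or KO amino 2 are given with and without them where they move. Values without KO amino 1 are not given singly.

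Per kilobase of exon, so that genes can be compared, Gip had the highest level of the 10 genes and Neurod1 the lowest. Gip stood at 88.3 ± 32.7 CPM per kb (SD, n = 12), Sst at 59.2 ± 17.4, Sct at 31.0 ± 12.3, Chgb at 20.8 ± 9.41 and Chga at 14.2 ± 3.58. Cck followed at 13.6 ± 7.26, Gcg at 5.19 ± 1.33, Pyy at 5.02 ± 4.91, Ghrl at 3.01 ± 1.25 and Neurod1 at 0.708 ± 0.243. The ranges of every 2 neighbours in this order overlapped: Gip exceeded Sst in 9 of 12 libraries, Chga exceeded Cck in 8, and Gcg exceeded Pyy in 7. Pyy varied most, from 0.405 to 9.89 CPM (13 to 309 reads). Neurod1 shares 201 exon bases with Cerkl on the same strand and 154 with Gm26755 on the opposite strand, and Ghrl shares 169 with Gm44033 on the opposite strand. Since the sources used here do not say whether counting used strand, reads of these genes are uncertain.

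Gip, Sst and Sct made up most of the hormone transcripts in every library. Of the summed CPM per kb of the 7 hormone genes, Gip took a median of 42.7% (20.5% to 51.2%), Sst 29.7% (18.7% to 40.2%) and Sct 15.9% (7.05% to 21.5%). Pyy took a median of 1.69%, with 16.7% in HET amino 2 and 6.76% in WT hydroxy 1, its highest values. Gcg, which encodes the glucagon-like peptides, took 9.59% in HET amino 2 and at most 3.60% in the other libraries. The summed level was 75.5 CPM per kb in HET amino 2 and 173 to 267 in the other 11 libraries. In bulk tissue, fewer enteroendocrine cells and less RNA per cell cannot be told apart. HET amino 2 also had high Fabp6, as did WT hydroxy 1, whose summed level was 232 CPM per kb. The part of this in the low sum of HET amino 2 was not tested.

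**Figure D1:**
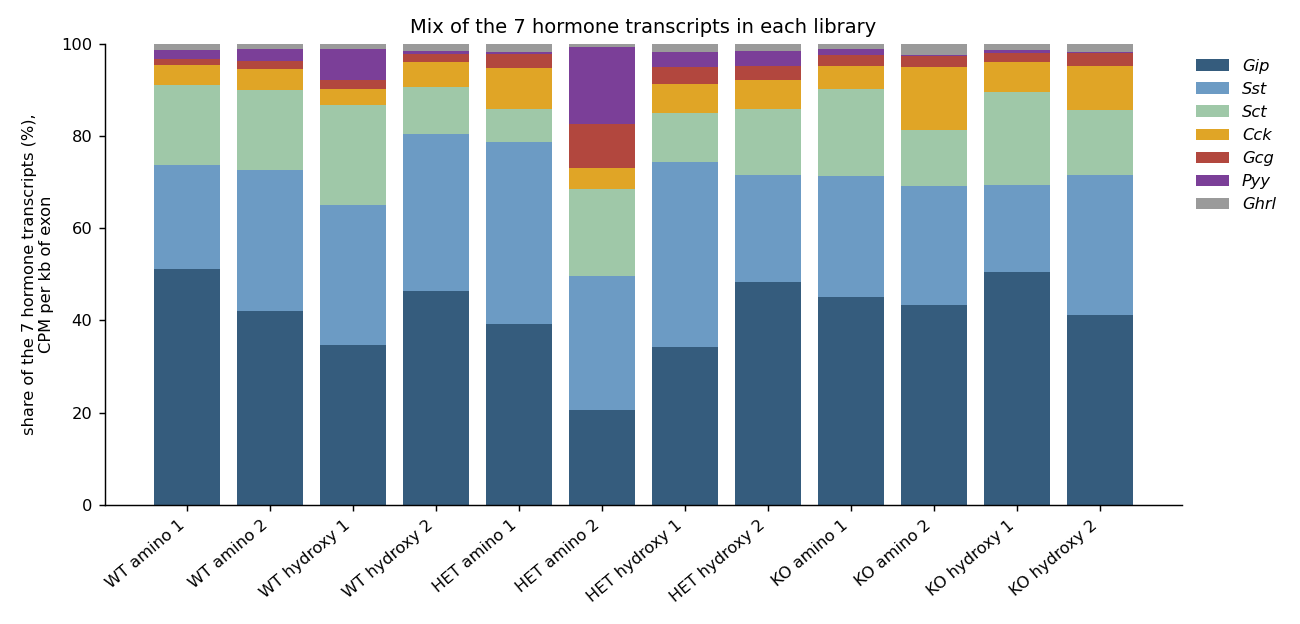
Stacked bars give the share (%) of each of 7 hormone transcripts in their summed CPM per kb of exon, for each of the 12 libraries. HET amino 2 stands apart, with 20.5% Gip, 16.7% Pyy and 9.59% Gcg.

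The promoters are shown of Chga, Chgb, Cck and Ghrl, whose pairs had the highest correlations across libraries, and of Sst and Pyy, which were correlated with marker lists, as described below. Each runs from 250 bases before to 50 bases after a RefSeq start (build GRCm38.p6, the assembly of mm10), 5′ to 3′ on the strand of the gene. Capitals mark matches, on either strand, to the E-box CANNTG, which NEUROD1 and other basic helix-loop-helix factors bind, the cAMP response element TGACGTCA, TATAAA and the GATA motif AGATAA.
Chga, chr12:102554691-102554990, plus strand: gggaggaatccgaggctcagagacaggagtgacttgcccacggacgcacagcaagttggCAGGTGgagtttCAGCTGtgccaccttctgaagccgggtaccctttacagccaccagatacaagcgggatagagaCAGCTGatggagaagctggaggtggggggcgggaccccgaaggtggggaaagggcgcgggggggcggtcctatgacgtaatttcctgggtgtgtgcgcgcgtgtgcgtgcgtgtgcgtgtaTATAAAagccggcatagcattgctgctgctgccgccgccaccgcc
Chgb, chr2:132781392-132781691, plus strand: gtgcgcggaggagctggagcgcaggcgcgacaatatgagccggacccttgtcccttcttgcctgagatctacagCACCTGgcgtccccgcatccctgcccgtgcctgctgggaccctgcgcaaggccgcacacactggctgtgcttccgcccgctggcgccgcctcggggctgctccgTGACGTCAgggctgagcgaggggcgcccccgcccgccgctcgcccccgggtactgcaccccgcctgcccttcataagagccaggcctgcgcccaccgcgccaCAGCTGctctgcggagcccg
Cck, chr9:121495645-121495944, minus strand: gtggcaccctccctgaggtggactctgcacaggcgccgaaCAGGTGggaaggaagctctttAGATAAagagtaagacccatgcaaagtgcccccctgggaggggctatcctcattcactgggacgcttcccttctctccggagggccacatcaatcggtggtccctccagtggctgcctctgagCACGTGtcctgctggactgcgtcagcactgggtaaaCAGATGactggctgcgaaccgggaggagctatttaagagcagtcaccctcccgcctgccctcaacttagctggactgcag
Ghrl, chr6:113719862-113720161, minus strand: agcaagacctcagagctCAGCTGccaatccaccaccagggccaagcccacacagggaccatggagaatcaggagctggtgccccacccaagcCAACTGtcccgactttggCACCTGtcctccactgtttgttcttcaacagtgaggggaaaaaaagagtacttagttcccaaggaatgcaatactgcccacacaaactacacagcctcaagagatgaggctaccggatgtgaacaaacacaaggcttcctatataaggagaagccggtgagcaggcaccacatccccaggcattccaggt
Sst, chr16:23890795-23891094, minus strand: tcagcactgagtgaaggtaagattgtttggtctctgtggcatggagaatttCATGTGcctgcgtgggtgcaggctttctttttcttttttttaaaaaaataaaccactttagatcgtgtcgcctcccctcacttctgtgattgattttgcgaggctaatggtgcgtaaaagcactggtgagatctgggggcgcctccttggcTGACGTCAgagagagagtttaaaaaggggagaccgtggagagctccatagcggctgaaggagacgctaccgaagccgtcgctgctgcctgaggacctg
Pyy, chr11:102107783-102108082, minus strand: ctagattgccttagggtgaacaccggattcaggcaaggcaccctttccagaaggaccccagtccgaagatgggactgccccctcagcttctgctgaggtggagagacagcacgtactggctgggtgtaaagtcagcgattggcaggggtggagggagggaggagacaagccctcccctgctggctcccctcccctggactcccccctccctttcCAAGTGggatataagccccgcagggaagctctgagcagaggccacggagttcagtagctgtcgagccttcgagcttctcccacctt
An E-box was found in the promoters of all 10 genes and in 72.3% of 32851 mouse promoters of the same length. Of its special cases, CAGCTG was in 5 of the 10 (Chga, Chgb, Gip, Sct and Ghrl) and in 16.3% of all promoters, and CAGATG was in 3 (Cck, Sct and Gcg) and in 17.2%. TGACGTCA was in 2 of the 10, with its first base at −72 in Chgb and −48 in Sst, and in 1.79% of all promoters. TATAAA was in 3 of the 10 and 13.6% of all promoters, and AGATAA in 2 and 11.2%. The RefSeq start of Chgb lies 364 bases from the start the deposited table gives. These are matches of letters and do not show binding.

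The granule genes and Cck had their highest values in KO amino 2 and their lowest in HET amino 2. Values are given for amino 1, amino 2, hydroxy 1 and hydroxy 2 of each genotype, here and below. Chga (chromosome 12, 102554941 to 102565027, mm10) stood at 35.9, 29.6, 34.3 and 37.4 CPM in WT, at 47.7, 21.0, 42.6 and 45.2 in HET, and at 38.1, 61.2, 38.7 and 38.3 in KO. Every KO value was above every WT value, and the HET values spanned both. Chgb (chromosome 2, 132781278 to 132795072) stood at 44.7, 31.6, 30.4 and 58.7 CPM in WT, at 70.1, 16.4, 63.3 and 71.7 in HET, and at 49.2, 116, 64.6 and 67.1 in KO. The KO and WT ranges overlapped only between KO amino 1 and WT hydroxy 2. Cck (chromosome 9, 121489824 to 121495694), the hormone of gallbladder contraction and pancreatic secretion, stood at 14.8, 10.6, 10.4 and 18.2 CPM in WT, at 21.1, 4.45, 16.0 and 18.7 in HET, and at 11.3, 41.7, 20.8 and 25.4 in KO. Its genotype ranges overlapped, with KO amino 1 inside the WT range. Ghrl (chromosome 6, 113716119 to 113719911), the gene of the hunger hormone ghrelin, ranged from 0.552 CPM in HET amino 2 to 6.04 in KO amino 2.

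Gip and Sct, the incretin and secretin genes, had their lower values in HET. Gip (chromosome 11, 96024545 to 96030828) stood at 94.1, 50.6, 55.2 and 83.7 CPM in WT, at 48.1, 10.6, 45.2 and 75.8 in HET, and at 53.8, 69.6, 83.1 and 58.2 in KO. HET amino 2 was far below all others, and HET amino 1 and HET hydroxy 1 also lay below every WT and KO value. Only HET hydroxy 2 lay within the WT and KO ranges. Sct (chromosome 7, 141278329 to 141279133) stood at 29.98, 19.5, 32.2 and 17.3 CPM in WT, at 8.14, 9.17, 13.1 and 21.4 in HET, and at 20.9, 18.1, 31.1 and 19.0 in KO. Of the HET libraries, 3 lay below every other library, and HET hydroxy 2 lay within the other ranges. Sst (chromosome 16, 23889581 to 23890844), the inhibitory hormone somatostatin that enteric neurons also make, stood at 43.3, 38.9, 50.9 and 64.3 CPM in WT, at 51.1, 15.9, 55.8 and 38.2 in HET, and at 32.8, 43.5, 32.3 and 44.9 in KO. Its genotype ranges overlapped.

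The hormone genes known mainly from the distal gut differed from each other. Pyy (chromosome 11, 102106676 to 102107832) stood at 3.54, 2.88, 9.89 and 1.15 CPM in WT, at 0.526, 7.97, 4.15 and 4.67 in HET, and at 1.40, 0.434, 1.02 and 0.405 in KO. All 4 KO values were low, and WT hydroxy 2 and HET amino 1 were as low. Gcg (chromosome 2, 62474530 to 62483653) stood at 5.28, 4.45, 7.17 and 6.95 CPM in WT, at 7.92, 10.8, 10.3 and 10.1 in HET, and at 6.40, 8.30, 6.78 and 8.57 in KO. Every HET value was above every WT value, and KO lay between them with overlap. Neurod1 (chromosome 2, 79452641 to 79456636) stood at 2.06, 1.30, 1.57 and 1.90 CPM in WT, at 3.37, 2.24, 2.04 and 2.60 in HET, and at 1.40, 2.39, 1.17 and 1.15 in KO. HET held the higher values, with overlap of both other genotypes. 

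**Figure D2:**
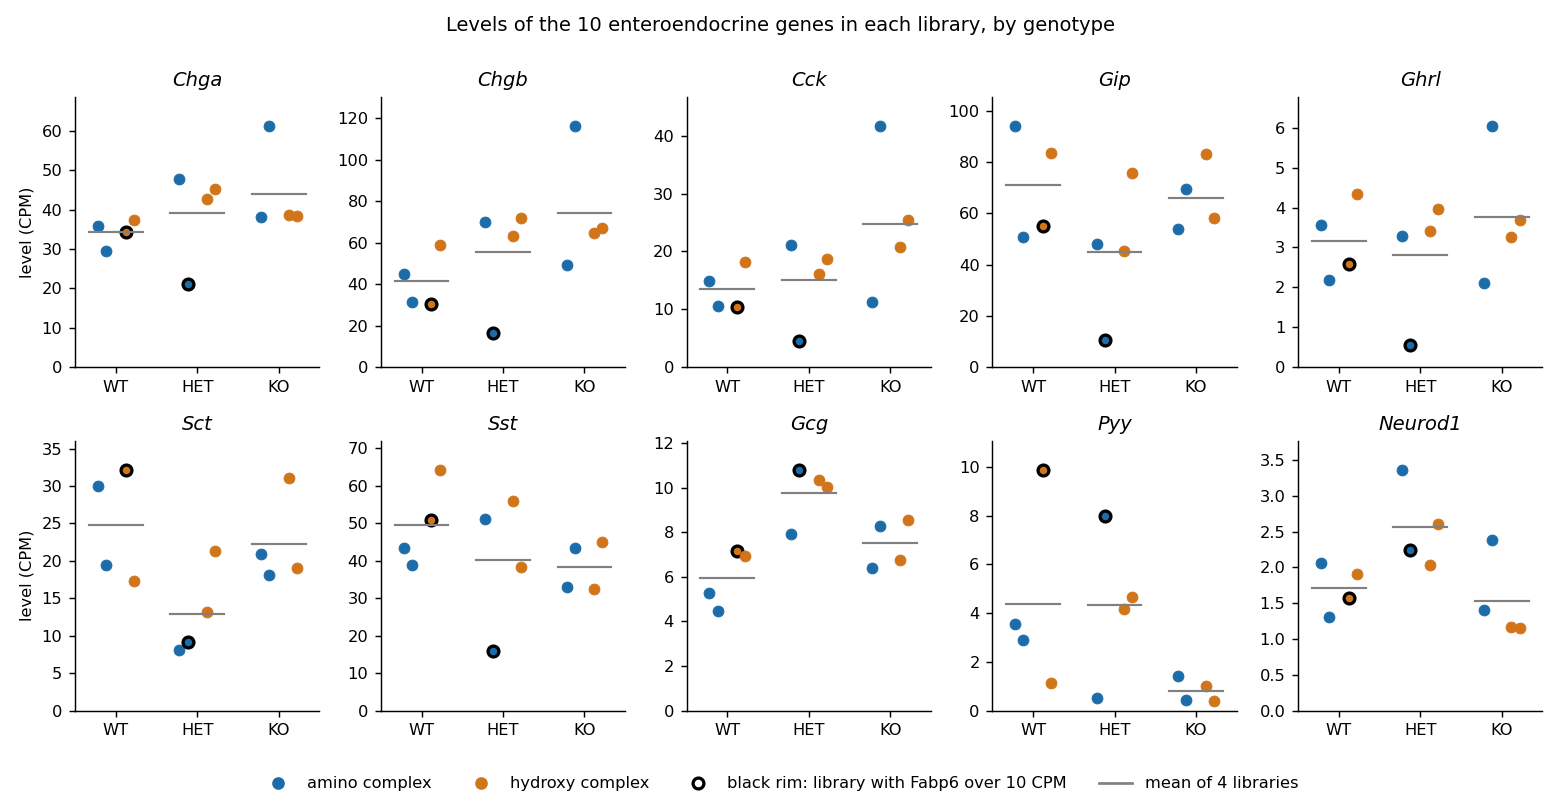
Each panel plots the level (CPM, from 0) of 1 gene in the 12 libraries by genotype, blue for the amino and orange for the hydroxy complex, with the mean of the 4 libraries as a grey line and a black rim on the 2 libraries with Fabp6 over 10 CPM. KO lies above WT without overlap for Chga only, and HET above WT for Gcg only.

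Between KO and WT, none of the 10 genes passed an adjusted p of 0.05 in limma (Benjamini-Hochberg over the 14001 genes), and none had an unadjusted p under 0.05. Over all genes, 4 (0.0286%) passed and 1370 had an unadjusted p under 0.05. On the log2(CPM + 1) scale, which understates changes of low genes, Pyy was lower in KO by a log2 change of −1.35 (SE 0.60, adjusted p = 0.512). Chgb differed by 0.81 (SE 0.43, adjusted p = 0.562), Cck by 0.73 (SE 0.48, adjusted p = 0.617) and Chga by 0.33 (SE 0.24, adjusted p = 0.640). Groups did not overlap for 1 of 10 genes, Chga, which was higher in KO, against 2.92% of all genes higher and 2.57% lower without overlap. An exact two-sided permutation test gave p = 0.0286 for Chga, the smallest that 4 against 4 libraries allow, and 0.0571 for Chgb and for Pyy. The 10 genes had a median log2 change of 0.05, with 5 above 0, beside 0.02 over all genes.

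These values depended on single libraries. Without KO amino 2, the log2 change was 0.50 for Chgb, 0.28 for Cck and 0.16 for Chga. Without WT hydroxy 1 and HET amino 2, it was −0.76 for Pyy (adjusted p = 0.408). Ileal markers moved with Pyy: their summed level over 8 genes was 348 to 674 CPM in KO, 644 to 1254 in WT and 607 to 1446 in HET, and their part in the difference was not tested. With a score of smooth muscle markers in the model, Pyy passed in limma (log2 change −1.88, adjusted p = 0.0496), among 274 of the 14001 genes. With a score of epithelial markers, Pyy (−1.44, adjusted p = 0.0267) and Chgb (0.88, adjusted p = 0.0304) passed, among 156 of the 14001 genes.

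Between HET and WT, again none of the 10 genes passed in limma, and neither did any of the 14001 genes (0.0%; 2137 had an unadjusted p under 0.05). Sct and Gcg had an unadjusted p under 0.05. Sct differed by a log2 change of −0.93 (SE 0.26, adjusted p = 0.207) and Gcg by 0.64 (SE 0.19, adjusted p = 0.208). Gip differed by −0.88 (SE 0.42, adjusted p = 0.356), and Neurod1 by 0.39 (SE 0.21, adjusted p = 0.423). Gcg was the 1 of 10 genes whose groups did not overlap, higher in HET, against 5.84% of all genes higher and 3.81% lower, and its exact permutation p was 0.0286, again the smallest possible. Without HET amino 2 the value of Gip was −0.36. With the smooth muscle score in the model, Sct (−1.03, adjusted p = 0.0229) and Gcg (0.64, adjusted p = 0.0444) passed in limma. In that fit 1103 of the 14001 genes passed.

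Between KO and HET, 957 genes (6.84%) passed in limma and none of the 10 genes was among them. Sct came nearest, higher in KO by a log2 change of 0.80 (SE 0.26, adjusted p = 0.0886), and Neurod1 differed by −0.51 (SE 0.21, adjusted p = 0.161). Pyy differed by −1.34 (SE 0.60, adjusted p = 0.186), Gip by 0.81 (SE 0.42, adjusted p = 0.237) and Cck by 0.73 (SE 0.48, adjusted p = 0.348). The groups overlapped for all 10 genes, while 6.21% of all genes were higher and 7.13% lower in KO without overlap. Without HET amino 2, the values were 0.29 for Gip, 0.22 for Cck and −0.70 for Pyy. Without HET amino 1, the values were 1.33 for Gip and −1.98 for Pyy. With the epithelial score, Chgb (0.78), Cck (0.97), Gip (1.01) and Pyy (−1.66) passed, among 2311 of the 14001 genes. With the smooth muscle score, Sct (0.69) and Pyy (−1.62) passed, among 3556 of the 14001 genes.

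**Figure D3:**
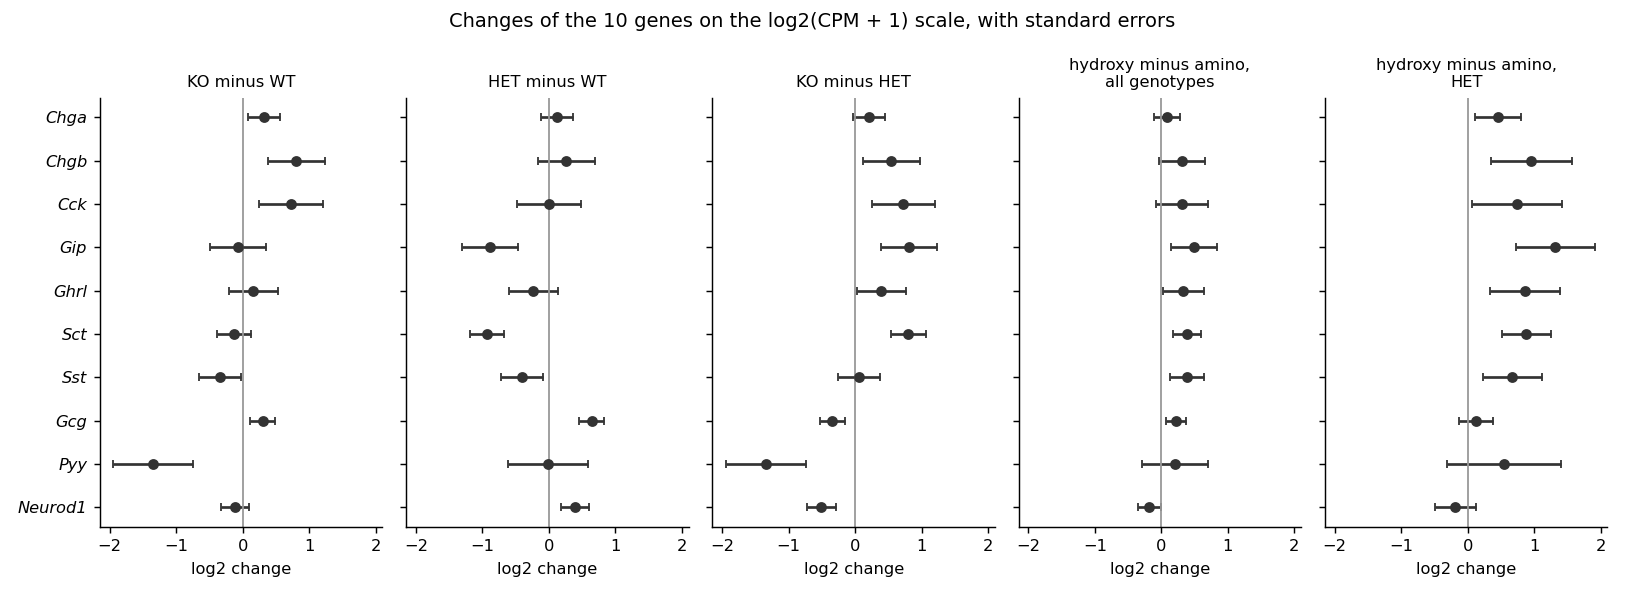
Points give the log2 change of each gene in limma on the log2(CPM + 1) scale and bars its standard error, in 5 comparisons. No gene passed an adjusted p of 0.05 in any of them, and Pyy has the lowest values, −1.35 in KO against WT and −1.34 in KO against HET.

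Between the hydroxy and the amino complex over all genotypes, no gene passed in limma, among the 10 or among all genes (0.0%; 1255 of all and 0 of the 10 had an unadjusted p under 0.05). The log2 change was above 0 for 9 of the 10 genes, with a median of 0.31, beside a median of 0.07 and 62.8% above 0 over all genes. Gip had the highest value, 0.49 (SE 0.34, adjusted p = 0.697), and Sct the smallest p (0.39, SE 0.21, adjusted p = 0.597). The complexes overlapped for all 10 genes, and 0.121% of all genes were higher and 0.00714% lower on the hydroxy complex without overlap. Without HET amino 2 the value of Gip was 0.15 and that of Chgb −0.03, from 0.31.

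Within genotypes, with 2 libraries a side, no gene passed in limma in WT, HET or KO (0.0% of all genes in each; 144, 375 and 1921 genes had an unadjusted p under 0.05). The 10 genes gave 0, 1 and 0 values with an unadjusted p under 0.05. That gene was Sct in HET, at 8.14 and 9.17 CPM on the amino and 13.1 and 21.4 on the hydroxy complex, a log2 change of 0.88 (SE 0.37, adjusted p = 1). Gip in HET differed by 1.32 (SE 0.59, adjusted p = 1), and by 0.28 without HET amino 2. The complex had a larger value in HET than in WT by 1.34 for Gip (SE 0.84) and 0.92 for Sct (SE 0.52), and for KO less WT the 10 genes gave −0.46 to 0.34. Without HET amino 2 the difference was 0.30 for Gip and 0.99 for Sct, and without both libraries with high Fabp6 it was 0.0038 for Gip and 1.42 for Sct. None of these differences passed for any gene in limma (0.0% of all genes), and 222 and 530 genes had an unadjusted p under 0.05.

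Across the 12 libraries, the 6 pairs among Chga, Chgb, Cck and Ghrl had the highest correlations of 45 pairs. Pearson's r of log2(CPM + 1) was 0.961 for Chgb and Cck (Spearman's rho 0.937), 0.953 for Chga and Chgb (rho 0.951), 0.932 for Cck and Ghrl (rho 0.741) and 0.909 for Chga and Cck (rho 0.853). Over 45 pairs, adjusted permutation p-values of r for these 4 were 0.0006, 0.00045, 0.0006 and 0.00261, and those of rho 0.0009, 0.0009, 0.0716 and 0.0134. Without the 2 libraries farthest from the median of the first gene, r was 0.916, 0.850, 0.770 and 0.634. Chga and Ghrl had r of 0.887 (adjusted p = 0.0036; rho 0.608, adjusted p = 0.203), and 0.521 without HET amino 2 and KO amino 2. Within groups, r of the deviations from group means was 0.960 to 0.993 for the 6 pairs. It was also high for pairs with other genes, at 0.925 for Neurod1 and Ghrl, 0.894 for Neurod1 and Cck, 0.876 for Gip and Chgb and 0.854 for Sst and Chga. With 2 libraries a group, the 2 deviations in a group mirror each other. The within-group r therefore rest on 6 separate values, not 12, and no p is given for them. In all, 9 of 45 pairs passed an adjusted p of 0.05 by r. By rho, the only pairs that passed were Chga and Chgb, Chgb and Cck, Chga and Cck, and Cck and Pyy. Libraries share their tissue and their makeup of other cells, which these correlations do not separate.

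Over 12 libraries Gip was correlated with Ghrl about as Chga was, and Pyy ran against Chgb and Cck. Gip and Ghrl had r of 0.847 (adjusted p = 0.0297; rho 0.615, adjusted p = 0.203) over 12 libraries and 0.525 without WT amino 1 and HET amino 2. Without the 2 libraries with Fabp6 over 10 CPM, r was 0.454 for Gip and Ghrl and 0.735 for Chga and Ghrl. Gip and Chgb had r of 0.686 over 12 libraries and 0.119 without WT hydroxy 1 and HET amino 2. Pyy and Chgb had r of −0.727 (adjusted p = 0.0297; rho −0.636, adjusted p = 0.195), and −0.472 without WT hydroxy 1 and HET amino 2. Pyy and Cck had r of −0.752 (adjusted p = 0.0218; rho −0.818, adjusted p = 0.0198), and −0.649 without HET amino 2 and KO amino 2. Sct and Chga had r of 0.085 and Gcg and Chga 0.107, and without the 2 libraries with Fabp6 over 10 CPM these were −0.369 and 0.677.

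**Figure D4:**
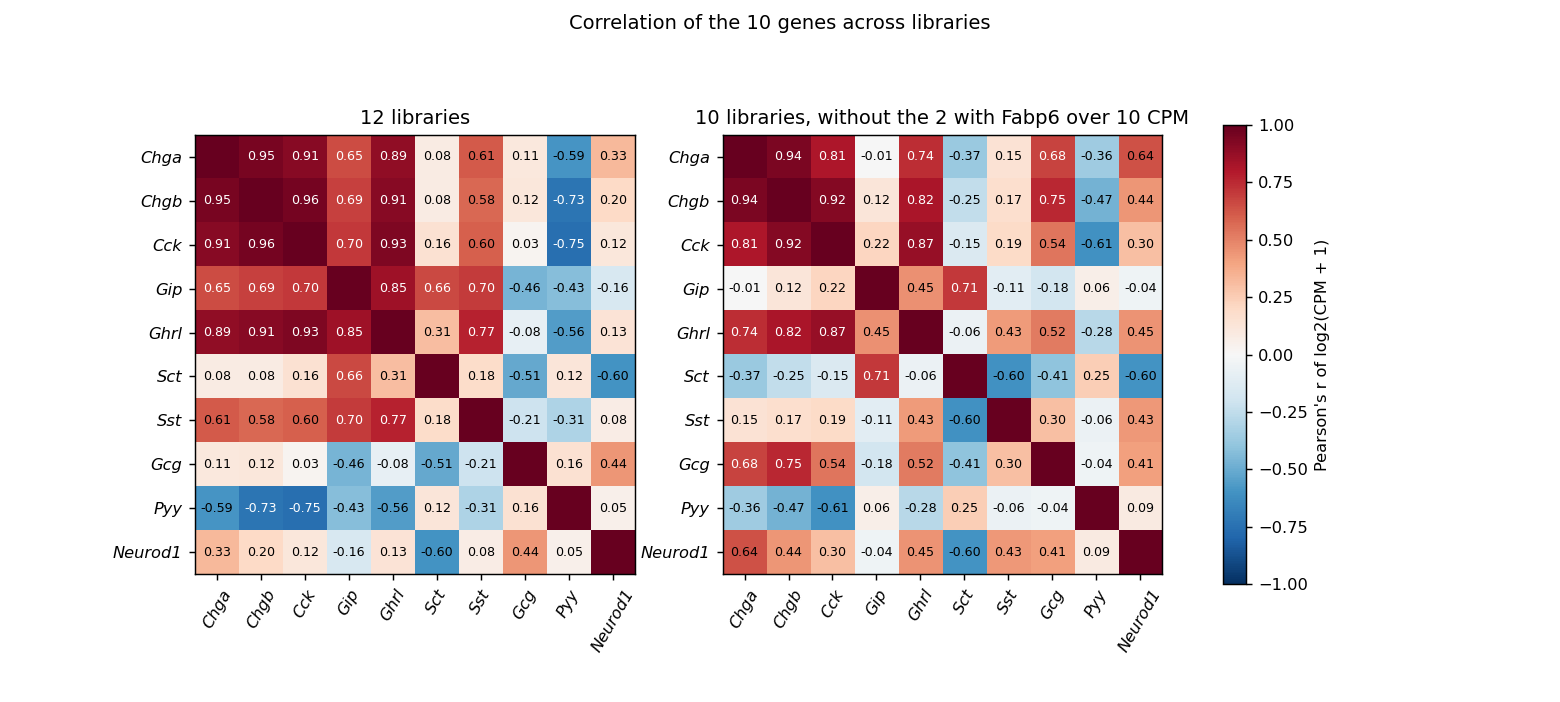
Each square gives Pearson's r of log2(CPM + 1) between 2 of the 10 genes, over 12 libraries on the left and over the 10 libraries with Fabp6 below 10 CPM on the right. Chga, Chgb, Cck and Ghrl keep r of 0.735 or more on the right, where Gcg and Chgb also reach 0.751. The value of Gip with Chga falls from 0.65 to −0.01.

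Pyy was correlated with the ileal markers, and Sst with several lists, the markers of enteric neurons and glia among them. Of 120 relations of a gene with a list over the 12 libraries, 8 passed by r, and 4 of them were of Sst. The 2 libraries with high Fabp6 form a cluster of their own on the ileal score (the mean log2(CPM + 1) of 8 ileal markers), so the relation was read in the other 10. There Pyy had r of 0.933 with the ileal score (permutation p = 0.00031, adjusted over 20 relations 0.0031) and rho of 0.964 (p = 7e-05). Cck had r of −0.733 with it (adjusted p = 0.0825). Sst had r of 0.951 with the mean of 15 neuron and glia markers in the same 10 libraries (adjusted p = 0.0014; rho 0.952) and of 0.746 over all 12 (adjusted over 120 relations 0.0255). The summed level of those markers was 94.9 to 218 CPM in WT, 55.1 to 207 in HET and 45.9 to 124 in KO. The adjustment over 20 relations covers 2 of 12 lists, all of which had been tested over the 12 libraries. It does not count that choice, so the p-values in the 10 libraries are no independent support. Other lists gave similar values for Sst. Over 12 libraries it had r of 0.769 with the mean of 8 other gut hormone genes (adjusted p = 0.0255; rho 0.874), 0.747 with 8 smooth muscle markers (adjusted p = 0.0255; rho 0.846) and 0.723 with 20 genes of granule building and prohormone processing (adjusted p = 0.0467; rho 0.881). In the 10 libraries these were 0.877, 0.898 and 0.948.

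Sct ran against the mean of the other transcription factors listed for these cells, though not against each of them. The mean was of 15 such factors that passed the filter, among them Neurog3, Insm1, Foxa2, Nkx2-2, Sox4 and Atoh1. With it Sct had r of −0.817 (adjusted p = 0.0255) and rho of −0.790 (adjusted p = 0.0436) over 12 libraries. Without HET amino 1 and HET hydroxy 1, the oldest mice, r was −0.717. Gcg had r of 0.661 with the same mean (adjusted p = 0.151). Single factors differed: in HET amino 1 and WT hydroxy 1, Sox4 stood at 19.3 and 8.39 CPM and Atoh1 at 5.08 and 9.79. With the mean of 9 genes by which these cells sense nutrients, Sct had r of −0.613 (adjusted p = 0.189). Its rho with them was −0.790 (adjusted p = 0.0436).

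**Figure D5:**
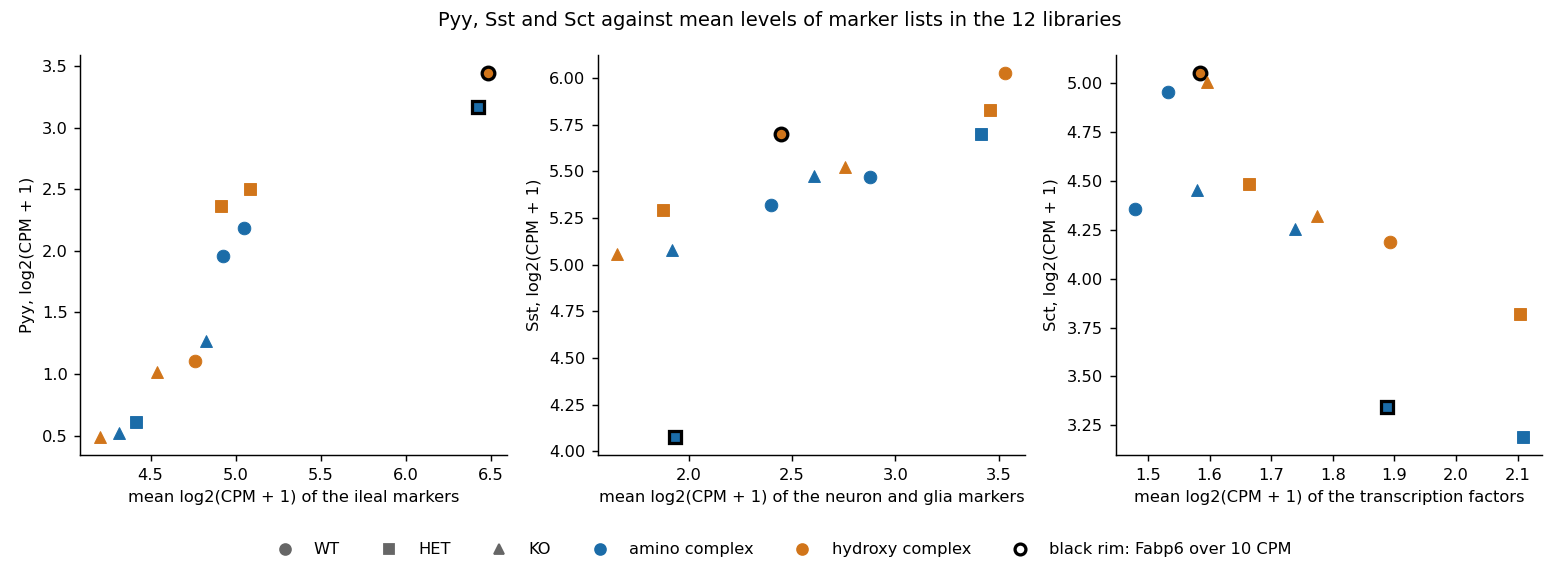
Each panel plots log2(CPM + 1) of 1 gene against the mean log2(CPM + 1) of a marker list in the 12 libraries (circles WT, squares HET, triangles KO, blue amino, orange hydroxy, black rim for Fabp6 over 10 CPM). Pyy is higher where the ileal markers are, and Sst where the neuron and glia markers are, except in HET amino 2. Sct is lower where the mean of the transcription factors is higher.

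By a search over all tested genes, the genes with the highest r with Chgb were Rdh10 (0.970), a retinol dehydrogenase, Chpt1 (0.924) and Fth1 (0.910), the ferritin heavy chain. Rdh10 also led for Chga (0.945) and Cck (0.976), and Fth1 for Ghrl (0.949). Sct was most like Apoa1 (0.975), an apolipoprotein of enterocytes, Pla2g12b (0.973) and Ilvbl (0.966). Gip was most like BC029722 (0.956), Leap2 (0.952), which encodes an antagonist of the ghrelin receptor, and Rab24 (0.947). Pyy was most like Plb1 (0.972), Fam151a (0.953) and Mgat4c (0.949), and Sst like Mpv17 (0.960), Ddah2 (0.946) and Egfl7 (0.944). Gcg was most like Vti1a (0.882), Timd4 (0.881) and Ube3c (0.881), and Neurod1 like Pdpr (0.871), Zc3h13 (0.870) and Tulp4 (0.866). Without the 2 libraries with Fabp6 over 10 CPM, these r ran from 0.725 (Gip and BC029722) to 0.967 (Sct and Apoa1). Since each gene was picked as the highest of all tested genes over 12 libraries, no p is given.

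Of the genes of granule building and prohormone processing, all 20 listed passed the filter and 0 passed in limma in the 3 genotype comparisons or the complex over all genotypes. In KO against WT, 0 of 20 had a log2 change above 0 (median −0.50, beside 0.02 over all genes). Pam, which amidates peptide hormones, had −0.72 (SE 0.38, adjusted p = 0.557), Scgn, a calcium-binding protein of secretory cells, −0.56 (adjusted p = 0.559), and Ptprn, a granule membrane protein, −0.73 (adjusted p = 0.622). Chga and Chgb, which are not in the list, had values above 0. Neurons also make many of these proteins: the 15 neuron and glia markers had 0 above 0 and a median of −0.53, and the 8 smooth muscle markers 0 above 0 and a median of −0.81 in the same comparison, and their part was not tested. Of 21 transcription factors, 15 passed the filter and 0 passed in limma; 14 of 15 were above 0 in HET against WT (median 0.32, beside 0.08 over all genes), and 3 of 15 in KO against HET (median −0.28, beside −0.07).

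Of 16 receptor genes of these hormones, 15 were listed and 6 passed the filter, and 1 passed in limma, in KO against HET, where 6.84% of all genes passed. Glp2r, the receptor of glucagon-like peptide 2, stood at 9.99, 7.66, 10.9 and 6.99 CPM in WT, at 17.4, 9.91, 16.0 and 15.2 in HET, and at 9.38, 5.33, 2.76 and 4.99 in KO. Every HET value was above every KO value. It fell by 1.31 on the log2 scale from HET to KO (SE 0.27, adjusted p = 0.0317). Leaving out the 2 libraries with high Fabp6 gave −1.50 (adjusted p = 0.0624), and the adjusted p was 0.0972 without the 2 HET mice over 300 days old and 0.121 without KO amino 2. It passed in 15 of 25 alternatives, with an adjusted p from 0.00807 to 0.121. The neuron and smooth muscle markers were lower in the same comparison (medians −0.46 and −0.37, 0 passing), and their part was not tested.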

How the data were processed

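RNA was taken from tissue labelled small intestine of 12 mice, 1 library each, in 6 groups of 2 set from the sample labels. The authors deposited 1 table of CPM values with 0.0001 added to each; per the submitters' processing notes, Partek, TopHat2 and mm10 were used in roles and versions not stated, and neither is the counting tool, annotation or use of strand. Low values rise in steps that gave 26.0 to 38.8 M reads per library; 93.4% to 94.5% of values below 1000 reads lay within 0.05 of a whole number, too few to treat the values as reads, and no test for counts was run. Floors and read numbers cover counting error only.

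The 14001 of 17112 genes with 1 CPM or more in 2 or more libraries were fitted on log2(CPM + 1) with limma 3.58.1 in R 4.3.3 (6 group means, eBayes with trend, two-sided, 6 residual and 3.61 prior degrees of freedom), tested on simulated data. Each adjusted p is Benjamini-Hochberg over all genes tested, with a threshold of 0.05. Single genes were also compared by exact permutation tests, and correlations by 100000 permutations (scipy 1.17.1, numpy 2.4.6). Exon lengths are unions of GENCODE exons, table ends were taken as 1 past the last base, and promoters are RefSeq's on GRCm38.p6.

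The 10 genes and the gene lists were chosen with earlier results of these data known. The genes named are the 10; of each list those past the threshold and those with the smallest p; and for each of the 10 the 3 genes with the highest r. Replicate numbers were given in accession order and pair no samples. The labels do not say that mice came from separate litters or cages. Alternatives covered the pseudocount, the filter, scaling, covariates, library weights and left-out libraries.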

Additional observations from a re-analysis of the deposited data

Results flagged for a closer look

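Of 50 groups of 4 or 6 libraries that were checked (10 genes in WT, HET, KO, amino and hydroxy), 3 held a library far from the others, and chance flags about 1 in 20 groups. Chga stood at 61.2 CPM in KO amino 2, while the other 3 KO libraries lay between 38.1 and 38.7. Chgb stood at 16.4 CPM in HET amino 2, below the other HET libraries at 63.3 to 71.7. Chgb stood at 30.4 CPM in WT hydroxy 1, below the other 5 hydroxy libraries at 58.7 to 71.7. HET amino 2 and WT hydroxy 1 are the 2 libraries with Fabp6 over 10 CPM, whose part in these values was not tested.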

How the results depend on the processing

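Limits come first. With 2 libraries a group, 1 library can set a value: HET amino 2 and KO amino 2 held the lowest and highest levels of several genes. Pyy reached 13 reads at its lowest. Over 26 alternatives, 53 of 90 values (10 genes in 9 comparisons) changed sign at least once and 37 did not; the largest of the 53 was 0.96 in size. The values below are log2 changes of all 10 genes in the 5 comparisons plotted in the report, a set taken after the values had been seen, and the cause of each change was not tested.

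No gene of the 10 passed in any comparison in the fit reported. With the smooth muscle score, 1 passed in KO against WT, 2 in HET against WT and 2 in KO against HET. Of all 14001 genes, 274, 1103 and 3556 passed in those fits. With the epithelial score, 2 passed in KO against WT and 4 in KO against HET, beside 156 and 2311 of all 14001 genes. Leaving out 1 library at a time gave 0 to 2 in KO against HET. Genes whose groups did not overlap numbered 0 in KO against WT under quantile normalization and under median ratio scaling, and 0 in HET against WT under quantile normalization. In HET against WT they numbered 3 without the 2 libraries with high Fabp6 and 3 without the HET mice over 300 days old, and in KO against HET 2 without those mice. Leaving out 1 library gave 1 to 4 in KO against WT, 1 to 3 in HET against WT and 0 to 2 in KO against HET. Groups of fewer libraries fail to overlap more easily for any gene. No share over all genes is given here for the reduced sets, so their counts cannot be read against those of the full set.

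Signs turned as follows. In HET against WT, Cck became −0.12 with age as a covariate, −0.18 with the epithelial score, −0.060 under median ratio scaling, −0.017 with a pseudocount of 0.1 and −0.087 under quantile normalization. In the same comparison Pyy became 0.15 with age, 0.22 with the epithelial score and 0.010 with a pseudocount of 5. In KO against WT, Neurod1 became 0.022 under quantile normalization and Gip 0.10 with the smooth muscle score. Without the 2 libraries with high Fabp6, Sct became 0.085 in KO against WT, Chga −0.084 and Sst −0.35 in KO against HET, and Chga −0.082 for the complex over all genotypes. In HET, the complex then gave −0.12 for Chga, −0.056 for Chgb, −0.27 for Cck and −0.14 for Sst. Without the older HET mice, HET against WT gave −0.14 for Chga, −0.20 for Chgb, −0.45 for Cck and 0.66 for Pyy, the complex over all genotypes −0.20 for Pyy, and the complex in HET −0.66 for Pyy, −0.10 for Gcg and 0.15 for Neurod1.

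Leaving out 1 library at a time gave these ranges where a sign turned. KO against WT ranged from −0.29 to 0.15 for Gip, −0.35 to 0.085 for Sct, −0.13 to 0.46 for Ghrl and −0.24 to 0.0071 for Neurod1. HET against WT ranged from −0.16 to 0.41 for Chga, −0.25 to 0.77 for Chgb, −0.50 to 0.51 for Cck, −0.81 to 0.0025 for Sst, −0.60 to 0.14 for Ghrl and −0.65 to 0.63 for Pyy. KO against HET ranged from −0.084 to 0.49 for Chga and −0.35 to 0.46 for Sst. The complex over all genotypes ranged from −0.10 to 0.28 for Chga, −0.030 to 0.65 for Chgb, −0.025 to 0.65 for Cck and −0.22 to 0.63 for Pyy. The complex in HET ranged from −0.12 to 1.03 for Chga, −0.056 to 1.97 for Chgb, −0.27 to 1.75 for Cck, −0.14 to 1.48 for Sst, −0.73 to 1.82 for Pyy, −0.079 to 0.33 for Gcg and −0.40 to 0.030 for Neurod1.

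Over all genes, limma called 957 in KO against HET, and 3556 with the smooth muscle score, 2311 with the epithelial score, 1646 with age, 1681 under quantile normalization, 280 with library weights, 602 without the trend, 451 without the older HET mice and 2 without the libraries with high Fabp6; leaving out 1 library gave 1 to 1396. In KO against WT it called 4, with 1 to 274 over the alternatives, and in HET against WT 0, with 0 to 1103. Of the calls in KO against HET, 481 were higher and 476 lower, and without the older HET mice 320 and 131. Quantile normalization moved the median log2 change of all genes for the complex in WT from 0.10 to −0.0031. No paired analysis was possible because the labels give no shared replicate numbers.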

Other observations

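Of 15 other gut hormone genes, 11 were listed and 8 passed the filter, and 0 passed in limma in the 3 genotype comparisons or in the complex over all genotypes. Their summed level was 79.4 to 143 CPM in WT, 82.8 to 125 in HET and 59.9 to 74.2 in KO. Nts and Vip had the highest median levels of the list, 32.9 and 26.0 CPM. In KO against WT the 15 neuron and glia markers had a median log2 change of −0.53 and 0 above 0, and the 8 ileal markers a median of −0.72 and 1 above 0, and their part in the sum was not tested. Nts, the gene of neurotensin, which is made by enteroendocrine cells mainly of the distal small intestine, ranged from 7.28 CPM in KO amino 2 to 91.5 in WT hydroxy 1 (log2 change −1.11 in KO against WT, SE 0.54, adjusted p = 0.535 in limma). Vip and Gal, neuropeptides of enteric neurons, had −0.89 (adjusted p = 0.459) and −0.95 (adjusted p = 0.566) in the same comparison.

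Of 15 genes by which these cells sense nutrients, 13 were listed and 9 passed the filter, and 0 passed in limma. Slc5a1, the glucose transporter that most enterocytes carry, made up nearly all of their summed level, and the fatty acid receptor genes Ffar2 and Ffar3 stood at 2.75 to 5.99 and 0.502 to 2.001 CPM. Of the 8 ileal markers 1, Cubn, passed in KO against HET, where 6.84% of all genes passed (log2 change −2.34, adjusted p = 0.0367). It passed in 13 of 25 alternatives, with an adjusted p from 0.00736 to 0.127, and was at 0.0950 without the 2 libraries with high Fabp6.

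Of 12 stomach markers, 5 were listed, and only Gkn3 (0.153 to 6.92 CPM) and Pgc (at most 1.92 CPM) passed the filter. Of 15 pancreas markers, 9 were listed and only Cela1 (3.40 to 24.8 CPM) passed it. Cela1 rose in KO against HET (log2 change 1.24, adjusted p = 0.0329), and it passed in 14 of 25 alternatives, with an adjusted p from 0.00717 to 0.113 and 0.0778 without the 2 libraries with high Fabp6. The other 8 listed pancreas markers reached at most 0.947 CPM in any library, the value of Ctrb1.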
